A study of Oryza sativa with 36 samples.

Results

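The ammonium transporters measured here are 5 rice genes, AMT1 (LOC4336365), AMT1;2 (LOC4330008), AMT2;1 (LOC4339064), AMT3;2 (LOC4334717) and AMT3;3 (LOC4329628). They are defined by name and gene ID, with every probe set that the array annotation ties to them. The list was drawn up with earlier results of these data known and leaves out other genes of the family, so counts of members called describe these 5 genes and are not independent evidence about the family. This gave 6 of 57194 probe sets and 5 of the 17905 genes that a probe set ties to a single gene. AMT1 had 2 probe sets and each of the other genes had 1.

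RNA was hybridised to 36 one-colour rice arrays, 3 for each of 12 groups that cross genotype, tissue and nutrient state. The genotypes were LYP9, 9311 and PA64s. As background that the labels do not give, LYP9 is the hybrid of the other two. All seedlings were first kept for 5 days in a mix of nutrient soil, vermiculite and sand and were later moved to 12 barrels of poor soil, each holding 15 plants of every variety. For the nutrient-sufficient state, 6 of the barrels were given 10 g urea and 10 g compound fertiliser at a seedling age of 14 days. Whether these amounts were for 1 barrel or in total is not stated. The nutrient-deficient barrels received neither. The labels do not say whether the 3 replicates of a group were separate plants or barrels, so the p-values measure only the spread between these samples, and 3 arrays a group limit the precision.

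Ammonium transporters are plasma membrane proteins that carry ammonium into cells, and paddy rice takes up much of its nitrogen in this form. The AMT1 proteins are known as high-affinity carriers of the root, while AMT2 and AMT3 proteins form a separate, MEP-like branch of the family whose roles in rice are less well described. In roots the ammonium that enters is joined to glutamate by glutamine synthetase, and urea reaches the same pool once urease has split it.

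Array medians lay between 65.98 and 74.5 intensity units in root and between 66.96 and 75.39 in leaf, and no pair of arrays was identical. All 6 root marker genes with a probe set were higher in root and all 6 leaf marker genes were higher in leaf. The mean log2 level of the leaf markers lay between 5.91 and 6.73 over the root groups and between 12.82 and 13.55 over the leaf groups, and that of the root markers between 9.52 and 9.89 in root and between 6.29 and 6.53 in leaf. Values below are the deposited intensities, in arbitrary linear units. Differences are on the log2 scale with the standard error of the limma fit, and a difference counts as called where its p, adjusted by Benjamini-Hochberg across the 34316 probe sets that a filter on mean level left, was under 0.05. Intensities of different genes are not compared, because probe sets differ in how brightly they hybridise.

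**Figure D1:**
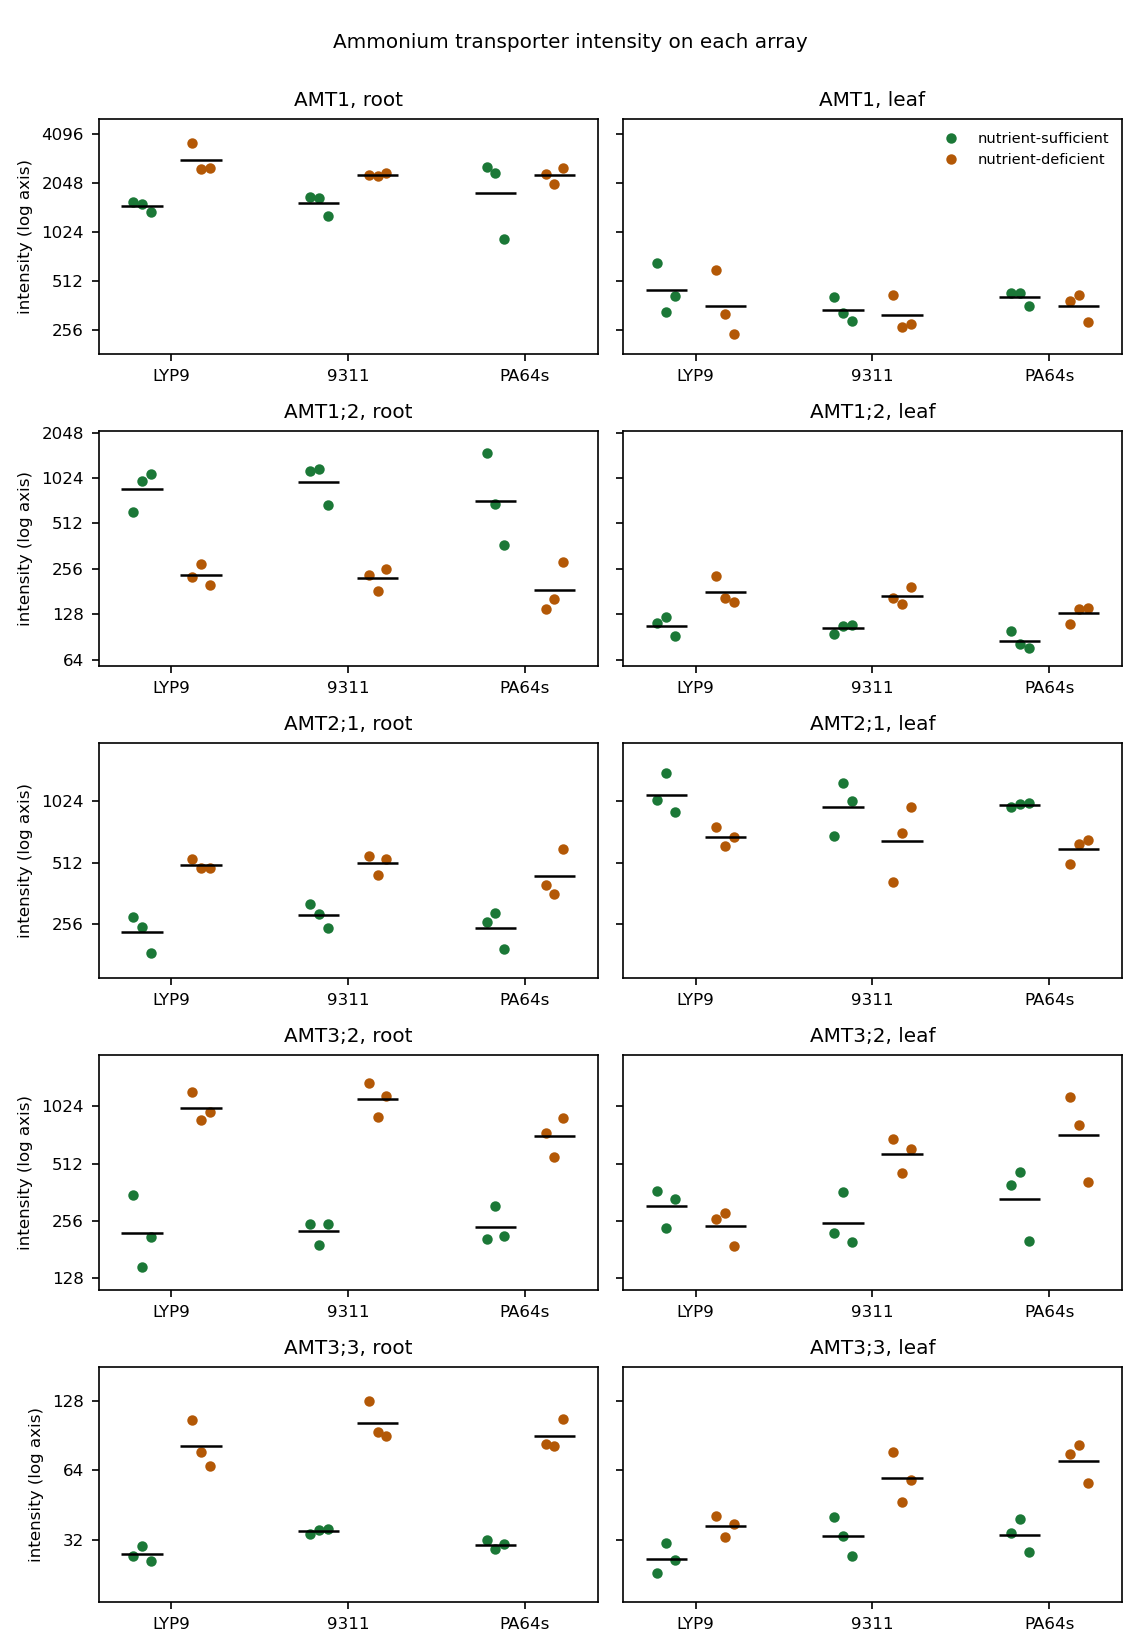
Intensity of each ammonium transporter on each array, on a log axis, in root (left) and leaf (right). Points are the 3 arrays of a group and the line is the mean of their log2 values. In root, every gene other than AMT1 separates by nutrient state in all 3 genotypes, AMT1;2 with the sufficient groups higher and the others with the sufficient groups lower.

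In roots, the transporters differed between the nutrient states in opposite directions. AMT1;2 was 3.998-fold higher in nutrient-sufficient than in nutrient-deficient roots when averaged over the 3 genotypes, while AMT3;2 was 4.06-fold lower and AMT2;1 was 1.90-fold lower. AMT3;3 was lower too, and AMT1 was lower by a smaller amount, 1.55-fold, which was called only in the average. In leaves the pattern differed. AMT1;2 was lower in the nutrient-sufficient state, and AMT2;1 was higher, which was called only in the average. AMT3;2 was lower in the average, with 9311 the only genotype called. PA64s leaves had a fall of similar size that was not called, and the difference in LYP9 leaves had the opposite sign and was not called. In bulk tissue such as this, fewer cells of a type and less RNA per cell cannot be told apart.

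AMT1, of the high-affinity branch, had intensities of 1568, 1533 and 1369 in nutrient-sufficient LYP9 roots, against 3623, 2516 and 2545 in nutrient-deficient ones. In 9311 roots the nutrient-sufficient arrays had 1684, 1669.5 and 1291, against 2289, 2251 and 2355 on the deficient arrays. In PA64s roots the intensities were 2591, 2373 and 929.8 in the sufficient state and 2338, 2034 and 2553 in the deficient state. Every sufficient array lay below every deficient array in LYP9 and in 9311, while in PA64s the states overlapped, with 1 sufficient array, replicate 3, far below the other two. The log2 differences, sufficient minus deficient, were -0.94 ± 0.28 in LYP9 (adjusted p = 0.0777), -0.58 ± 0.28 in 9311 (adjusted p = 0.217) and -0.36 ± 0.28 in PA64s (adjusted p = 0.612), none of them called. Their average of -0.63 ± 0.16 was called (adjusted p = 0.0123). Without replicate 3 of the sufficient PA64s roots the average was -0.47 ± 0.09 (adjusted p = 0.00206), and the differences in LYP9 (adjusted p = 0.00299) and in 9311 (adjusted p = 0.0341), unmoved in size, were then called. In LYP9 the difference was also called after quantile normalization (adjusted p = 0.0468). Without replicate 3, the sufficient PA64s arrays that remained, 2591 and 2373, lay within or above the range of the deficient ones. The fall in PA64s thus rested on that array, and the average without it on LYP9 and 9311.

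The second probe set of AMT1 read between 28.3 and 59.9 in root and between 28.0 and 44.9 in leaf. It lay below the filter level in every fit, so it carries no comparison here. Tested with no filter it was not called between nutrient states in either tissue, at 0.05 ± 0.12 in root (adjusted p = 0.862) and -0.10 ± 0.09 in leaf (adjusted p = 0.415). Its difference between root and leaf was 0.14 ± 0.08 (adjusted p = 0.0934).

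AMT1;2, also of the high-affinity branch, had intensities of 611, 972 and 1080.4 in nutrient-sufficient LYP9 roots, against 227, 275 and 199 in nutrient-deficient ones. In 9311 roots the gene had 1136, 1168 and 677 in the sufficient state and 233, 181 and 255 in the deficient state. In PA64s roots the sufficient arrays had 1499, 689.6 and 370.5, against 139, 160.4 and 283 on the deficient arrays. All 9 sufficient root arrays lay above all 9 deficient ones, and the sufficient PA64s arrays were the most scattered of the 12 groups. The difference was called in LYP9 at 1.90 ± 0.40 (adjusted p = 0.0165), in 9311 at 2.13 ± 0.40 (adjusted p = 0.00802) and in PA64s at 1.98 ± 0.40 (adjusted p = 0.0115). Averaged over the genotypes it was 1.999 ± 0.23 (adjusted p = 2.54e-05). The calls in single genotypes rested on few arrays. In LYP9 the call was lost without replicate 2 or 3 of the sufficient roots (adjusted p = 0.0707 and 0.0615) or replicate 1 of the deficient roots (adjusted p = 0.0728), in 9311 without replicate 2 of the sufficient roots (adjusted p = 0.0564), and in PA64s without replicate 1 or 2 of the deficient roots (adjusted p = 0.0541 and 0.0536). The gene table lists AMT1;3 next to this gene on the chromosome and gives both the synonym AMT1-2. No probe set used here is tied to that neighbour, so any share of the signal that came from it cannot be told apart.

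AMT2;1, of the MEP-like branch, had intensities of 276, 247 and 184 in nutrient-sufficient LYP9 roots and 534, 479 and 482 in nutrient-deficient ones. In 9311 roots it had 322, 287 and 245 in the sufficient state, against 552, 443 and 536 in the deficient state. In PA64s roots it had 261, 290.5 and 193 in the sufficient state and 395, 361 and 594 in the deficient state. All 9 sufficient arrays lay below all 9 deficient ones. The level fell by 1.098 ± 0.20 in LYP9 (adjusted p = 0.00684), by 0.84 ± 0.20 in 9311 (adjusted p = 0.0245) and by 0.84 ± 0.20 in PA64s (adjusted p = 0.0287), on the log2 scale. The average was -0.93 ± 0.12 (adjusted p = 5.13e-05). The call in 9311 was lost without replicate 2 of the sufficient roots (adjusted p = 0.106) or replicate 1 or 3 of the deficient roots (adjusted p = 0.101 and 0.0854), and that in PA64s without replicate 3 of the sufficient or of the deficient roots (adjusted p = 0.121 and 0.134).

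AMT3;2 belongs to the same branch, and its probe set is of the kind that may also bind related transcripts. It had intensities of 351, 147 and 212 in nutrient-sufficient LYP9 roots, against 1208, 865 and 955 in nutrient-deficient ones. The 9311 roots had 246, 192 and 247 in the sufficient state and 1358, 896 and 1159 in the deficient state, and the PA64s roots had 205, 308 and 213 in the sufficient state and 739, 557 and 885 in the deficient state. The states did not overlap in any genotype, and the lowest deficient array was a PA64s one. The differences of -2.17 ± 0.27 in LYP9 (adjusted p = 0.000411), -2.31 ± 0.27 in 9311 (adjusted p = 0.000296) and -1.59 ± 0.27 in PA64s (adjusted p = 0.00397) were all called, as was their average of -2.02 ± 0.16 (adjusted p = 5.73e-07).

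AMT3;3, its close namesake, was dim. It had intensities of 27.3, 30.2 and 26.1 in nutrient-sufficient LYP9 roots, against 106, 76.5 and 66.8 in nutrient-deficient ones. In 9311 roots it had 34.2, 35.4 and 35.7 in the sufficient state and 128, 94.2 and 90.5 in the deficient state, and in PA64s roots 31.9, 29.2 and 30.8 in the sufficient state and 82.96, 81.8 and 107 in the deficient state. Every deficient array lay above every sufficient one. The log2 difference was -1.55 in each of the 3 genotypes, with a standard error of 0.17 (adjusted p between 8.52e-05 and 0.000144), and -1.55 ± 0.10 in the average (adjusted p = 4.97e-08). Its mean level over the root arrays, 5.73, was just above the filter level of 5.70, and all 3 sufficient group means lay below that level, so the gene passed the filter through its deficient arrays and no fold is given. With no filter at all the average difference was the same size (adjusted p = 6.64e-08).

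In root, 4 of the 5 kept members were called in each genotype, 1 as higher and 3 as lower. Of all 34316 probe sets, 3.46% were called in LYP9, 5.89% in 9311 and 3.33% in PA64s. AMT3;3 is 1 of the 4 each time, and since it passed the filter only through its deficient arrays, these counts are a description and carry no support. With no filter 4 of the 6 member probe sets were called in each genotype, AMT3;3 among them, against 1.67% of all 57194 in LYP9, 2.79% in 9311 and 1.85% in PA64s. In the average all 5 were called, 1 higher and 4 lower, where 17.9% of all probe sets were. With no filter, 5 of the 6 probe sets were called in the average, against 11.5% of all 57194. The median log2 difference of the 5 was -0.93, beside 0.01 over all probe sets.

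**Figure D2:**
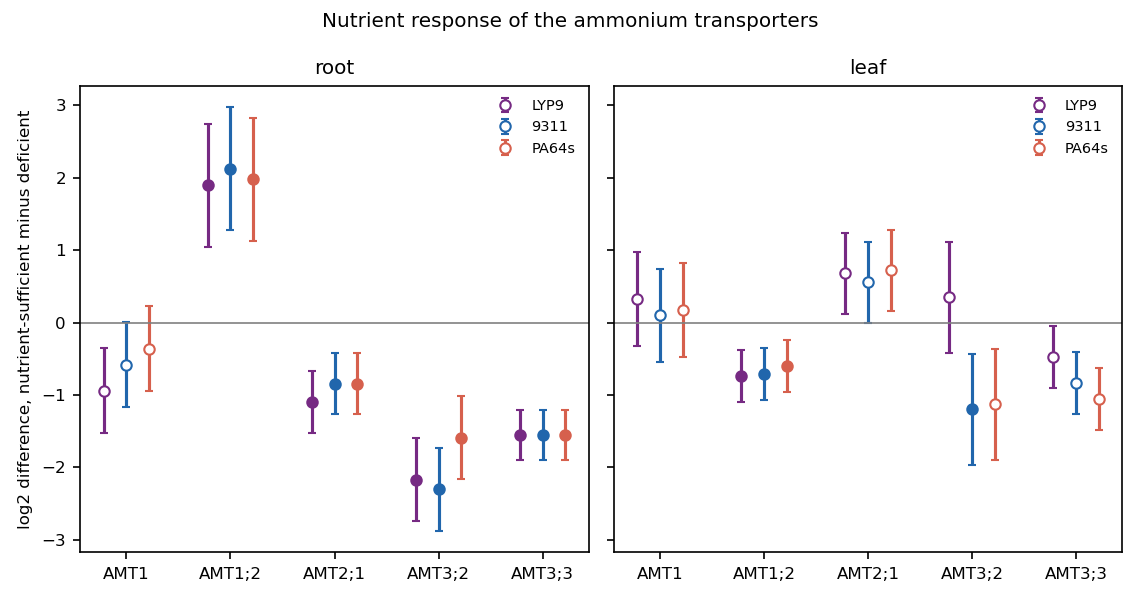
Log2 difference, nutrient-sufficient minus nutrient-deficient, of each ammonium transporter in each genotype, in root and leaf, with 95% intervals of the limma fit. Filled points were called and open points were not called or, for AMT3;3 in leaf, lay below the filter level. AMT1;2 lies above 0 in root and below 0 in leaf in all 3 genotypes, and the gene beside it, AMT2;1, does the opposite.

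In leaf, AMT1 had intensities of 664, 330.3 and 418 in nutrient-sufficient LYP9, against 599.6, 321 and 242 in nutrient-deficient LYP9. In 9311 leaves it had 412, 327 and 290.1 in the sufficient state and 423, 269.6 and 278 in the deficient state. In PA64s leaves it had 436, 430.3 and 359 in the sufficient state and 388, 423 and 286 in the deficient state. The states overlapped in each genotype, and replicate 1 of LYP9 was the highest in both states. Its differences were 0.32 ± 0.30 in LYP9, 0.10 ± 0.30 in 9311 and 0.17 ± 0.30 in PA64s, and their average of 0.20 ± 0.18 was not called (adjusted p = 0.389). The 95% interval of that average ran from -0.17 to 0.57.

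AMT1;2 had leaf intensities of 111, 122 and 91.2 in nutrient-sufficient LYP9, against 229, 164 and 155 in the deficient state. In 9311 leaves it had 94.6, 107 and 108 in the sufficient state and 164, 149 and 195 in the deficient state. In PA64s leaves it had 99.7, 81.7 and 76.9 in the sufficient state and 111, 139 and 141 in the deficient state. Within each genotype every sufficient leaf array lay below every deficient one, the reverse of the order in roots. The level fell by 0.74 ± 0.17 in LYP9 (adjusted p = 0.0133), by 0.71 ± 0.17 in 9311 (adjusted p = 0.013) and by 0.60 ± 0.17 in PA64s (adjusted p = 0.0413), and the average of -0.68 ± 0.10 was called (adjusted p = 8.05e-05). The call in LYP9 was lost without replicate 3 of its sufficient leaves (adjusted p = 0.0559) or replicate 1 of its deficient leaves (adjusted p = 0.0698), and that in 9311 without replicate 1 of its sufficient leaves (adjusted p = 0.055) or replicate 3 of its deficient leaves (adjusted p = 0.0641). In PA64s it was lost without any 1 of 7 leaf arrays, which were replicates 2 and 3 of both PA64s groups, replicates 2 and 3 of sufficient 9311 and replicate 1 of deficient 9311 (adjusted p from 0.0518 to 0.163), and also with no filter (adjusted p = 0.055). With all 36 arrays in 1 fit, where the wider spread of the root arrays enters, none of the 3 leaf differences was called (adjusted p = 0.133 in LYP9, 0.138 in 9311 and 0.24 in PA64s).

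AMT2;1 had leaf intensities of 1043, 1416 and 904 in the sufficient state and 763, 620.0 and 684 in the deficient state of LYP9. The 9311 leaves had 696, 1255 and 1030.2 in the sufficient state, against 409.5, 719.8 and 957 in the deficient state. The PA64s leaves had 959, 991 and 1001 in the sufficient state and 505, 630.2 and 664 in the deficient state. The states did not overlap in LYP9 and PA64s and did overlap in 9311. None of the single differences was called, at 0.68 ± 0.26 in LYP9 (adjusted p = 0.12), 0.56 ± 0.26 in 9311 (adjusted p = 0.181) and 0.72 ± 0.26 in PA64s (adjusted p = 0.105). Their average, 0.65 ± 0.15 or 1.57-fold higher in the sufficient state, was called (adjusted p = 0.00354). The difference in PA64s was called when replicate 1 of deficient 9311 leaves was left out (adjusted p = 0.0493).

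AMT3;2 had leaf intensities of 367, 236 and 332 in nutrient-sufficient LYP9, against 262, 280.4 and 189.6 in the deficient state. In 9311 leaves it had 220.2, 361 and 198 in the sufficient state and 686, 455 and 609 in the deficient state. In PA64s leaves it had 395, 459.6 and 201 in the sufficient state and 1143, 814 and 411 in the deficient state. The 9311 arrays separated by state, while the LYP9 and PA64s arrays overlapped. The difference was called in 9311 at -1.20 ± 0.36 (adjusted p = 0.0411), was not called in PA64s at -1.13 ± 0.36 (adjusted p = 0.0671), and stood at 0.35 ± 0.36 in LYP9 (adjusted p = 0.596). The average of -0.66 ± 0.21 was called (adjusted p = 0.021). In 9311 the call was lost with no filter (adjusted p = 0.0535) and without any 1 of 7 leaf arrays, which were replicates 1 and 3 of both 9311 groups, replicates 1 and 2 of deficient LYP9 and replicate 2 of deficient PA64s (adjusted p from 0.0502 to 0.15). In PA64s the difference was called with all 36 arrays in 1 fit (adjusted p = 0.0277) and with a replicate block (adjusted p = 0.0268). It was also called without replicate 3 of deficient PA64s leaves, at -1.54 (adjusted p = 0.0208).

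AMT3;3 had leaf intensities between 23.0 and 82.0, and its mean log2 level of 5.35 lay below the leaf filter level of 5.75, so it was not among the probe sets tested there. Its intensities were 23.0, 31.0 and 26.3 in sufficient LYP9 leaves and 40.6, 32.9 and 37.5 in deficient ones. In 9311 leaves they were 40.2, 33.4 and 27.3 in the sufficient state and 76.6, 46.8 and 58.5 in the deficient state, and in PA64s leaves 34.4, 39.4 and 28.4 in the sufficient state and 75.1, 82.0 and 56.7 in the deficient state. The deficient arrays lay above the sufficient ones in each genotype. Tested with no filter, the difference was -0.47 ± 0.20 in LYP9 (adjusted p = 0.195), -0.84 ± 0.20 in 9311 (adjusted p = 0.0189), -1.06 ± 0.20 in PA64s (adjusted p = 0.00656) and -0.79 ± 0.12 in the average (adjusted p = 0.000142).

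Of the 4 members kept in leaf, 1 was called in LYP9, 2 in 9311 and 1 in PA64s, where the share of all probe sets called was 8.85% in LYP9, 11.9% in 9311 and 7.73% in PA64s. In the average 3 were called, 1 higher and 2 lower, where 37.9% of all probe sets were. With no filter the calls among all probe sets were 5.25% in LYP9, 7.29% in 9311, 4.66% in PA64s and 28.5% in the average.

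The change with nutrient state differed between root and leaf for each of the 4 members kept in a fit over all 36 arrays. The root response minus the leaf response, averaged over the genotypes, was 2.68 ± 0.26 for AMT1;2 (adjusted p = 2.87e-08), -1.58 ± 0.20 for AMT2;1 (adjusted p = 1.62e-06), -1.36 ± 0.27 for AMT3;2 (adjusted p = 0.000695) and -0.83 ± 0.25 for AMT1 (adjusted p = 0.0189). The first and second of these had responses of opposite sign in the 2 tissues, and the third had the larger fall in root. Of all probe sets, 18.8% were called in this comparison. AMT3;3, tested with no filter, had -0.76 ± 0.15 (adjusted p = 0.000994), where 13.3% of all probe sets were called.

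Within genotypes, a pair of members was called for this difference in LYP9, 9311 and PA64s alike. AMT1;2 had 2.64 ± 0.45 in LYP9, 2.84 ± 0.45 in 9311 and 2.58 ± 0.45 in PA64s, and AMT2;1 had -1.78 ± 0.34 in LYP9, -1.40 ± 0.34 in 9311 and -1.57 ± 0.34 in PA64s (adjusted p at most 0.019 over these 6). AMT3;2 was called in LYP9 at -2.52 ± 0.47 (adjusted p = 0.00276) and was not called in 9311 at -1.11 ± 0.47 (adjusted p = 0.229) or in PA64s at -0.46 ± 0.47 (adjusted p = 0.631). The share of all probe sets called was 2.61% in LYP9, 3.35% in 9311 and 4.02% in PA64s. The call of AMT2;1 in 9311 was lost without replicate 1 of the deficient roots (adjusted p = 0.0539), replicate 2 of the sufficient leaves (adjusted p = 0.0668) or replicate 1 of the deficient leaves (adjusted p = 0.0795) of that genotype.

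The members also differed in which tissue held more of their RNA, and for the 4 kept members the size of that difference depended on the nutrient state, which is the same contrast as the root response minus the leaf response above. AMT1 was higher in root in both states, by 2.01 ± 0.18 or 4.03-fold in the sufficient state (adjusted p = 1.65e-11) and by 2.84 ± 0.18 or 7.16-fold in the deficient state (adjusted p = 5.83e-15). All 18 of its root arrays lay above all 18 leaf arrays, and over the 6 pairs of genotype and state the difference was 2.43 ± 0.12 (adjusted p = 3.38e-17).

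AMT1;2 was 8.61-fold higher in sufficient roots than in sufficient leaves, at 3.11 ± 0.19 (adjusted p = 2.42e-15), with no overlap of the arrays. In the deficient state it was 1.34-fold higher in root, at 0.42 ± 0.19 (adjusted p = 0.0421), and the arrays overlapped. The deficient call was lost without any 1 of 10 deficient arrays, which were replicates 1 and 2 of LYP9 roots, 1 and 3 of 9311 roots, 3 of PA64s roots, 2 and 3 of LYP9 leaves, 1 and 2 of 9311 leaves and 1 of PA64s leaves (adjusted p from 0.0531 to 0.119), after quantile normalization (adjusted p = 0.0861) and on log2(value + 16) (adjusted p = 0.051). Averaged over the states the difference was 1.76 ± 0.13 (adjusted p = 2.9e-13).

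AMT2;1 was lower in root, by 4.02-fold in the sufficient state at -2.01 ± 0.14 (adjusted p = 1.04e-13), where the arrays did not overlap, and by 1.34-fold in the deficient state at -0.42 ± 0.14 (adjusted p = 0.00814), where they did. The average was -1.22 ± 0.10 (adjusted p = 2.56e-12).

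The difference of AMT3;2 between the tissues had opposite signs in the 2 states, of which the deficient one was called. In the deficient state it was 1.997-fold higher in root, at 1.00 ± 0.19 (adjusted p = 3.7e-05), and in the sufficient state it stood at -0.36 ± 0.19 and was not called (adjusted p = 0.0891), though it was called without replicate 1 of sufficient LYP9 roots (adjusted p = 0.0268) or replicate 3 of sufficient PA64s leaves (adjusted p = 0.0218). In deficient LYP9, the root arrays of 1208, 865 and 955 all lay above the leaf arrays of 262, 280.4 and 189.6, a 4.15-fold difference at 2.05 ± 0.34 (adjusted p = 4.82e-06). The deficient difference was 0.96 ± 0.34 in 9311 (adjusted p = 0.0157), also without overlap, a call lost without replicate 1 of the deficient 9311 roots (adjusted p = 0.069) or replicate 2 of the deficient 9311 leaves (adjusted p = 0.079), and -0.02 ± 0.34 in PA64s (adjusted p = 0.959). In the sufficient state it was not called in any genotype, at -0.46 in LYP9, -0.15 in 9311 and -0.48 in PA64s, each ± 0.34, until replicate 3 of the sufficient PA64s leaves was left out (-0.84 in PA64s, adjusted p = 0.0412). Averaged over both states the difference was 0.32 ± 0.14 (adjusted p = 0.0347), a call lost when any 1 of 12 arrays was left out (adjusted p from 0.0513 to 0.0708), 1 array of each group other than sufficient 9311 roots and 1 more of sufficient 9311 leaves.

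Calls between the tissues were common among all probe sets. Of the 4 kept members, 3 were called in the sufficient state, where 75.8% of all probe sets were, and 4 in the deficient state, where 72.8% were. Within single genotypes the share was 60.4% in LYP9, 60.2% in 9311 and 60.6% in PA64s in the sufficient state, and 57.5% in LYP9, 55.5% in 9311 and 55.2% in PA64s in the deficient state. Over both states it was 81.4% in the average, 69.2% in LYP9, 68.3% in 9311 and 68.1% in PA64s. AMT3;3, tested with no filter, was higher in deficient roots by 0.76 ± 0.11 (adjusted p = 4.32e-07), where 62.1% of all probe sets were called, and stood at 0.00 ± 0.11 in the sufficient state (adjusted p = 0.995), where 66.3% were. Over both states it was at 0.38 ± 0.08 (adjusted p = 5.95e-05), where 73.3% were called.

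Placed in order of mean level, the 12 groups formed few clear steps. For AMT1 all 6 root groups came first, led by deficient LYP9 roots at a log2 level of 11.48 ± 0.30 (SD, n = 3), and a gap without overlap separated sufficient LYP9 roots, the lowest of them at 10.54 ± 0.10, and the highest leaf group at 8.82 ± 0.51. For AMT1;2 the 3 sufficient root groups led, between 9.50 and 9.91, and did not overlap with the deficient LYP9 roots that followed at 7.86 ± 0.23. For AMT2;1 the leaf groups led, and the 1 step without overlap lay between deficient PA64s roots at 8.78 ± 0.38 and sufficient 9311 roots at 8.14 ± 0.20.

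For AMT3;2 no neighbours in the order were free of overlap. Its order began with deficient 9311 roots at 10.13 ± 0.30 and ended with sufficient LYP9 roots at 7.80 ± 0.63, and deficient LYP9 leaves stood ninth, among the sufficient groups. AMT3;3 had a similar order, with deficient 9311 roots first at 6.68 ± 0.27. Its only step without overlap lay between deficient 9311 leaves at 5.89 ± 0.36 and deficient LYP9 leaves at 5.20 ± 0.15. Of the 11 neighbouring pairs per gene, at most 2 were without overlap.

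Between the parents, no member was called by limma in either tissue, in either state or in their average. The difference 9311 minus PA64s, averaged over both states, ran from -0.11 for AMT1 to 0.33 for AMT1;2 in root, with 95% intervals reaching from -0.53 to 0.93, and 0 of the 5 had an unadjusted p under 0.05. In leaf it ran from -0.37 for AMT3;2 to 0.32 for AMT1;2, with intervals from -0.91 to 0.58, and 1 of 4 had an unadjusted p under 0.05, the same gene at 0.32 ± 0.12 (adjusted p = 0.1). Of all probe sets, 13.3% were called between the parents in root and 11.9% in leaf.

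Within single states, 2 member values had an unadjusted p under 0.05 in the limma fit. AMT3;2 in deficient roots stood at 0.65 ± 0.27 (unadjusted p = 0.0292, adjusted p = 0.365), with all 3 arrays of 9311 above all 3 of PA64s, beside -0.07 ± 0.27 in sufficient roots. AMT1;2 in deficient leaves stood at 0.38 ± 0.17 (unadjusted p = 0.0403, adjusted p = 0.284), also without overlap, beside 0.27 ± 0.17 in sufficient leaves. In sufficient roots AMT1 was called at -0.69 only when replicate 3 of PA64s was left out (adjusted p = 0.016), against -0.22 with it. The share of all probe sets called was 18.8% in sufficient roots, 4.34% in deficient roots, 6.75% in sufficient leaves and 6.26% in deficient leaves.

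The nutrient response itself was not called as different between genotypes for any member. In root, the 9311 response minus the PA64s response ran from -0.72 for AMT3;2 to 0.15 for AMT1;2, with intervals from -1.53 to 1.35, and the LYP9 response minus the mean of the parents' responses ran from -0.47 for AMT1 to 0.00 for AMT3;3, with intervals from -1.19 to 0.88. None of these had an unadjusted p under 0.05. Such calls were rare among all probe sets, at 0.00874% for the parents and 0% for LYP9 in root, where 504 of 34316 had an unadjusted p under 0.05 in the LYP9 comparison.

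In leaf the 9311 response minus the PA64s response ran from -0.17 to -0.07 over the 4 members, with intervals from -1.15 to 1.01, and 0 of 4 had an unadjusted p under 0.05. For LYP9 against the mean of the parents, AMT3;2 stood at 1.51 ± 0.44, with an unadjusted p of 0.0036 in the limma fit and an adjusted p of 1, and the other members lay between -0.09 and 0.19. Of all probe sets 0.0175% were called for the parents and 0% for LYP9, where 622 had an unadjusted p under 0.05.

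**Figure D3:**
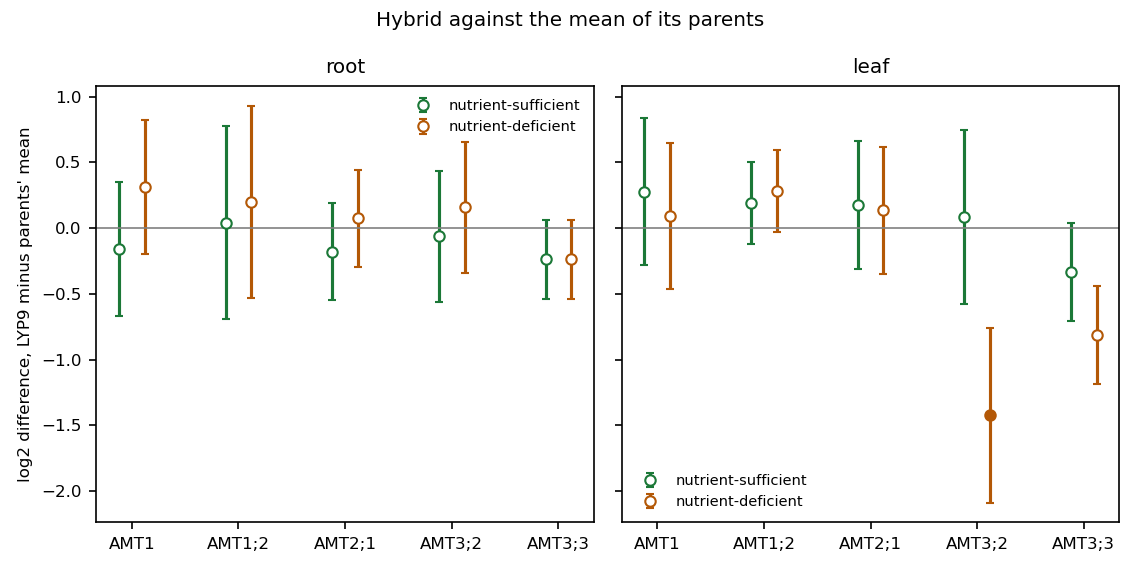
Log2 difference of LYP9 minus the mean of its parents for each ammonium transporter, in root and leaf and in both nutrient states, with 95% intervals of the limma fit. The filled point was called and open points were not called or, for AMT3;3 in leaf, lay below the filter level. AMT3;2 in nutrient-deficient leaf stands at -1.42.

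The level of LYP9 was set against the mean of its parents' log2 levels, which is the geometric mean of their intensities. In root, no member was called in the sufficient state, with differences between -0.24 and 0.04, or in the deficient state, with differences between -0.24 and 0.31. None of these 10 root values had an unadjusted p under 0.05 in the limma fit, and 0.72% of all probe sets were called in the sufficient and 0.513% in the deficient state. In sufficient leaves the 4 members lay between 0.09 and 0.28 and none was called or had an unadjusted p under 0.05, where 0.822% of all probe sets were called.

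In deficient leaves, AMT3;2 was lower in LYP9 than the mean of the parents. The LYP9 arrays read 262, 280.4 and 189.6, against 686, 455 and 609 in 9311 and 1143, 814 and 411 in PA64s. All 3 LYP9 arrays lay below all 6 parental arrays, and the lowest parental array was a PA64s one. The difference from the mean of the parents was -1.42 ± 0.31, or 2.68-fold lower (adjusted p = 0.0389), where 0.906% of all probe sets were called, and 1 of the 4 members was called. Against PA64s alone it was -1.59 ± 0.36 (adjusted p = 0.0292), where 1.96% were called, and against 9311 alone it was -1.26 ± 0.36 and not called (adjusted p = 0.122), where 1.92% were called. The difference from 9311 was called with all 36 arrays in 1 fit (adjusted p = 0.04) and with a replicate block (adjusted p = 0.0414). The call against the mean was lost without any 1 of 9 leaf arrays (adjusted p from 0.0503 to 0.193), which were all 3 of deficient LYP9, replicates 1 and 2 of deficient PA64s, replicates 1 and 3 of deficient 9311, replicate 3 of sufficient LYP9 and replicate 1 of sufficient 9311. That against PA64s was lost without any 1 of 5, all 3 of deficient LYP9 and replicates 1 and 2 of deficient PA64s (adjusted p from 0.073 to 0.171).

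AMT3;3 moved the same way in deficient leaves. Tested with no filter, LYP9 minus the mean of the parents was -0.81 ± 0.18 (adjusted p = 0.0454), where 0.598% of all 57194 probe sets were called. Against PA64s it was -0.94 ± 0.20 (adjusted p = 0.0249) and against 9311 it was -0.69 ± 0.20 (adjusted p = 0.156). These intensities are near the dim end of the array, and background signal was not analysed here. The other 3 members lay between 0.09 and 0.28 in deficient leaves.

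The other genes of the family with probe sets had average differences between -0.01 and 0.35, taking the brighter probe set of each. The gene table holds 9 AMT genes, and AMT2;2 (LOC4327434), AMT2;3 (LOC4327433) and AMT3;1 (LOC4324937) have probe sets beside the 5 described. In root, the average difference between nutrient-sufficient and deficient was 0.17 ± 0.10 for AMT2;2 (adjusted p = 0.261), 0.29 ± 0.10 for AMT2;3 (adjusted p = 0.0471) and 0.03 ± 0.08 for AMT3;1 (adjusted p = 0.876). In leaf, taken in the same order, it was -0.01 ± 0.09 (adjusted p = 0.936), 0.27 ± 0.09 (adjusted p = 0.031) and 0.35 ± 0.12 (adjusted p = 0.0284). None of the 3 was called in a single genotype. A second, dimmer probe set of AMT3;1 stood at -0.09 ± 0.07 in root and was not called there (adjusted p = 0.409).

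**Figure D4:**
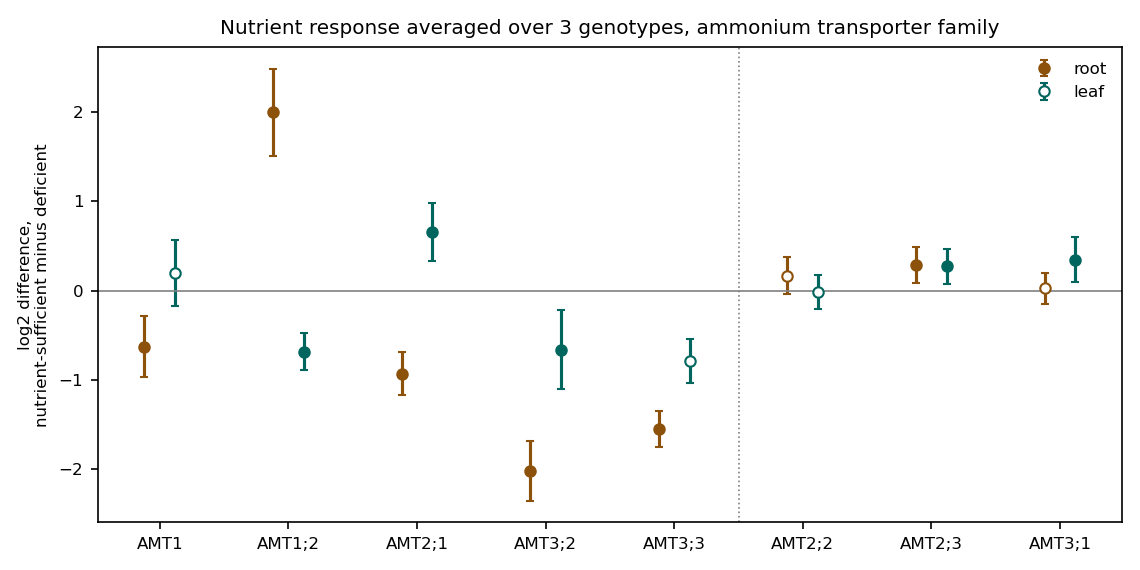
Log2 difference, nutrient-sufficient minus nutrient-deficient, averaged over 3 genotypes, for the 5 ammonium transporters (left of the dotted line) and 3 other genes of the family, in root (brown) and leaf (green), with 95% intervals of the limma fit. Filled points were called and open points were not called or, for AMT3;3 in leaf, lay below the filter level. The 3 other genes lie between -0.01 and 0.35.

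Enzymes that assimilate ammonium also differed between the nutrient states. For these enzymes 13 names were searched and 8 genes had a kept probe set. Of the 8, 4 were higher and 1 was lower in nutrient-sufficient roots in the average, where 17.9% of all probe sets were called in either direction. Their median log2 difference was 0.28, beside 0.01 over all probe sets. The cytosolic glutamine synthetase GS1;2 rose by 1.01 ± 0.14 (adjusted p = 9.9e-05), while its paralogue GS1;1 fell by 0.78 ± 0.13 (adjusted p = 0.000665). GLN2, the plastid glutamine synthetase, rose by 0.71 ± 0.09 (adjusted p = 7.53e-05) and the glutamate dehydrogenase gene GDH2 by 0.67 ± 0.21 (adjusted p = 0.0356). GDH2 was called in no single genotype in root, with differences from 0.148 in 9311 to 1.125 in PA64s. Of the 8 genes, 4 were higher and 1 was lower in leaf, where 37.9% of all probe sets were called, with a median of 0.32 beside 0.07 over all probe sets.

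For nitrate and urea uptake and reduction, 18 names were searched and 5 genes had a kept probe set, so the rest were not measured here. Of these 5 genes, 0 were higher and 2 were lower in nutrient-sufficient roots, against 17.9% of all probe sets called, with a median of 0.04. They were the urea transporter DUR3, at -1.79 ± 0.23 (adjusted p = 6.86e-05), and the nitrate transporter NRT2.3, at -0.92 ± 0.24 (adjusted p = 0.0126). NRT2.3 was called in root only in the average, and its probe set is of the kind that may also bind related transcripts. Of the 5 genes, 1 was higher and 3 were lower in leaf, against 37.9% of all probe sets called, with a median of -0.34. DUR3 and NRT2.3 are among the 3, and their mean levels in sufficient leaves, 5.50 and 5.44, lay below the leaf filter level of 5.75. Both passed the filter through their deficient arrays, so the leaf count is a description and carries no support.

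Named genes whose log2 level followed each member most closely were found by Pearson correlation over the 18 arrays of the tissue where the member was higher. These arrays hold both nutrient states, so the correlations include the nutrient difference, and they are given as a description. For AMT1;2 in root they were GAPC3 at 0.941, GLN1-2 at 0.934 and CDKE-1 at 0.932, where GLN1-2 is the annotation's symbol for GS1;2. For AMT1 in root they were HO1 at 0.861, HSF24 at 0.855 and GLN1-1, the symbol for GS1;1, at 0.832. AMT2;1 in leaf was followed by HCT2 at 0.914, ETR3 at 0.91 and OsTIP2;2 at 0.902.

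For AMT3;2 in root they were BAT1 at 0.948, the allantoinase gene ALN at 0.939 and osysl12 at 0.934. For AMT3;3 in root they were ALN at 0.97, BAT1 at 0.957 and OsSAPK1 at 0.942, so that ALN and BAT1 were near both genes.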

How the data were processed

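The authors deposited linear array intensities for 57381 probe sets on 36 arrays, with a floor of 1, as the range of the values shows. Their scaling is not stated by the labels or the file. Per the submitters' processing notes RMA and affy were used, with no role stated. Control and reporter probe sets, 187 in all, were dropped. Each intensity was turned to log2 once, without further scaling. In R 4.3.3 with limma 3.58.1, group means were fitted with lmFit and tested 2-sided with eBayes over the 18 arrays of a tissue. Contrasts between tissues used all 36 arrays. The upper 60% of probe sets by mean log2 level, 34316 in each fit, were kept, and p-values were Benjamini-Hochberg adjusted over them. The fit was tested on simulated data. A gene with several probe sets was read from the one with the highest mean. No fold is given where a group's mean lay below the filter level.

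Named genes were the 5 members, the other AMT genes, the 3 nearest named genes per member by correlation, and up to 4 called genes per list with the largest root changes. The members and lists were chosen with earlier results of these data known. Symbols and gene IDs were matched to a reference gene table, in which 2 list names, GS2 and AS2, pointed to unrelated genes and were dropped. The planned list names GLN1, GLU and NR1 were not searched either. Sequences of the members were not used here, and no genome position is printed because the build of the array design is not stated by the labels or the file. Alternatives were quantile normalization, median centring, no filter, log2(value + 16), trend and robust variance, a replicate block, all 36 arrays in 1 fit and leaving out each array.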

Additional observations from a re-analysis of the deposited data

Results flagged for a closer look

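For 4 members the nutrient response differed between root and leaf by a test of the difference itself in limma (adjusted p under 0.05). Of all probe sets, 18.8% were called in this comparison averaged over the genotypes, 2.61% in LYP9, 3.35% in 9311 and 4.02% in PA64s. Averaged over the genotypes, the root response minus the leaf response was -0.83 for AMT1, 2.68 for AMT1;2, -1.58 for AMT2;1 and -1.36 for AMT3;2 on the log2 scale. In LYP9 the difference was 2.64 for AMT1;2, -1.78 for AMT2;1 and -2.52 for AMT3;2. In 9311 it was 2.84 for AMT1;2 and -1.40 for AMT2;1, and in PA64s it was 2.58 for AMT1;2 and -1.57 for AMT2;1. The limma call of AMT2;1 in 9311 was lost when certain single arrays of that genotype were left out (adjusted p from 0.0539 to 0.0795). AMT1;2 was higher in 9 of 9 nutrient-sufficient root arrays than in any deficient root array, and in leaf its sufficient arrays were lower within each genotype. What sets the tissues apart was not tested.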

How the results depend on the processing

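Of 171 member values, 72 were called, and 57 of these were called under every alternative in which the gene passed the filter. The other 15 lost the call under at least 1 alternative and 0 changed sign. Many of the 72 compare the level in root with that in leaf, where between 55.2% and 81.4% of all probe sets were called in the main setting. The 57 include the root values of AMT3;3, which passed the filter through its deficient arrays. A further 11 values that were not called became called under an alternative. With all 36 arrays in 1 fit the members called in leaf numbered 1 in 9311, against 2 in the main setting, and 0 in LYP9, against 1. With no filter, LYP9 against PA64s and LYP9 against the mean of the parents in deficient leaves each had 2 members called, against 1, since AMT3;3 was then tested. The labels do not say what the numbers 1 to 3 mark, so the main fit did not treat the arrays as paired. Deviations from the group mean were correlated between same-numbered arrays of different groups, which cannot decide whether the arrays were paired. The correlations ran from -0.395 to 0.528 in root, with 20 of 45 above 0.1, and between -0.287 and 0.616 in leaf, with 33 of 45. In root 10 of 18 arrays and in leaf 13 of 18 were closest to their own number, a hint from the data of a shared deviation, more so in leaf. With a replicate block, the probe sets called for the leaf response numbered 4532 in LYP9, 6070 in 9311 and 4208 in PA64s, against 3037, 4093 and 2652 without it. PA64s leaf then had 2 members called, against 1, AMT3;2 being added (adjusted p = 0.0268), AMT1 was called for the root response minus the leaf response in LYP9 (adjusted p = 0.0345), and AMT3;2 was called for LYP9 against 9311 in deficient leaves (1 member, against 0), as it was with all 36 arrays in 1 fit. The block ended none of the members' calls. Leaving out 1 array at a time gave 2 to 5 members called in LYP9 root and in 9311 root and 2 to 4 in PA64s root, against 4 with all arrays. It gave 0 to 2 in 9311 leaf, 0 to 1 in LYP9 leaf and in PA64s leaf, 1 to 2 for the root response minus the leaf response in 9311, and 0 to 1 for LYP9 against PA64s and against the mean of the parents in deficient leaves. It gave 1 to 3 for root against leaf in deficient 9311, 1 to 2 in deficient PA64s, 3 to 4 in the average of each state and 0 to 1 between the parents in sufficient roots. In PA64s leaf the member called was not always AMT1;2. Without replicate 1 of deficient 9311 leaves it was AMT2;1, and without replicate 3 of deficient PA64s leaves it was AMT3;2. The share of all probe sets called in the main setting was 55.5% in deficient 9311 and 55.2% in deficient PA64s. It was 75.8% in the sufficient and 72.8% in the deficient average, and 18.8% between the parents in sufficient roots. AMT3;3 in root passed the filter in 16 of 25 settings and was called in all 16. Where a filter was applied it passed through its deficient arrays, so those calls are a description and carry no support. The causes of these changes were not tested. Scaling the arrays by their median or by quantiles shifted the median difference of all probe sets by less than 0.1. Over all settings the number of probe sets called for the nutrient response ran from 318 to 1515 in LYP9 root (1188 in the main setting), from 302 to 3735 in 9311 root (2021), from 553 to 1468 in PA64s root (1143), between 1364 and 4532 in LYP9 leaf (3037), between 1837 and 6070 in 9311 leaf (4093) and between 1163 and 4208 in PA64s leaf (2652). AMT3;3 and the second probe set of AMT1 lay near or below the filter level, where dim signal limits the size of a difference.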
